A study of Mus musculus with 47 samples.

Results

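The 6 genes described here encode components of FGF signalling: the ligands Fgf1 and Fgf2, the receptor tyrosine kinases Fgfr1, Fgfr2 and Fgfr3, and Fgfrl1, a receptor with an FGF-binding ectodomain but no kinase. They were taken by symbol from a table of 14221 genes, in which all 6 were present, and their values were followed through the 7 groups of the study. All groups were male ob/ob mice, which lack leptin, labelled as 11 weeks of age, with 1 mouse per library and 47 libraries in all. FGF1-treated mice received 3 µg of FGF1, a recombinant human protein, by icv injection, as the treatment labels and methods give it, and controls received vehicle and were pair-fed. The source label that all samples share also names FGF19, which no treatment label does. Hypothalami of separate mice were collected 1, 5 or 42 days later. The Day 1 groups held 10 mice given FGF1 and 4 given vehicle, the Day 42 groups 5 mice each, and 9 mice given FGF1 were examined on Day 5. The vehicle-treated mice were labelled non-diabetic, except on Day 5, where 7 were labelled non-diabetic and 7 diabetic. The methods instead exclude mice that were not diabetic and count fewer vehicle-treated mice on Day 5 than the labels do, so which vehicle group they mean is not known, and both are given here. The injected protein itself leaves no reads, so the Fgf1 counts are those of the gene of the mouse.

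FGFs bind their receptors together with heparan sulfate, and the ligand-bound receptors dimerize, phosphorylate the adaptor FRS2 and feed the RAS-ERK and PI3K pathways. ERK activity in turn induces its own inhibitors, the Sprouty, Spred and DUSP proteins, and ETS factors such as Etv4 and Etv5. FGF1 and FGF2 both lack a classical secretion signal, and FGF1 is known for binding all FGF receptors. In the adult brain, Fgfr3 is best known from astrocytes, Fgfr2 from the oligodendrocyte lineage and astroglia, and Fgfr1 from neurons as well as glia.

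Total counts per library ran from 7579695 to 47082403, apart from 1 FGF1-treated mouse of Day 1 (replicate 1) with 1243280, in which the 6 genes had between 19 and 235 counts each. On Day 5, replicates 8 and 9 of the FGF1-treated mice had 30009258 and 27922117 counts. The other libraries of that day, both vehicle groups included, had from 7579695 to 12451642. None of the 6 was at 0 in any library. Values are CPM, that is counts scaled to library size with TMM factors for composition, and fold changes come from edgeR's quasi-likelihood test fitted to all libraries. A gene passed where its Benjamini-Hochberg adjusted p over the 14221 genes was under 0.05 and its log2 fold change was above 0.5 in size. The labels carry a single preparation code for each day, so a difference between days cannot be told apart from one between preparations, and contrasts of treatment were made inside a preparation. The labels name no litters or cages, and p-values measure the spread between these mice. Of 13 hypothalamus markers, among them Agrp, Npy, Pomc and Pmch, 13 were in the table and none was at 0 in all libraries of a group.

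Levels were compared between genes per kilobase of exon. In vehicle-treated mice of Day 1, the level was 33.8 ± 4.77 CPM per kilobase for Fgf1, 23.2 ± 4.99 for Fgfr3 and 12.5 ± 1.36 for Fgfr1 (SD, n = 4). The other genes were lower, with 4.82 ± 0.643 for Fgfr2, 3.05 ± 0.697 for Fgfrl1 and 2.78 ± 1.05 for Fgf2. Fgf1 was thus the more abundant of the 2 ligand transcripts and Fgfr3 of the 3 kinase receptors, and the last pair lay within each other's SD. In vehicle-treated, non-diabetic mice of Day 5, Fgfr3 had 26.4 ± 1.17 and Fgf1 26.2 ± 2.12 CPM per kilobase (SD, n = 7), which did not differ beyond their spread. With the longest coding transcript as the length, Fgfr3 was the higher beyond the spread, at 44.45 ± 1.98 against 35.9 ± 2.90. Fgfr1 and Fgfr2 followed with 7.74 ± 0.730 and 6.45 ± 0.536, and their order turned when the longest coding transcript was used as the length (15.2 ± 1.43 and 15.5 ± 1.28).

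On Day 1, 4 of the 6 genes passed, 3 of them higher and 1 lower in FGF1-treated mice, where 19.5% of all genes tested passed. Fgf2 rose 3.38-fold, Fgfrl1 2.86-fold and Fgfr1 1.83-fold, whereas Fgf1 fell to 0.672 of the vehicle level. In each of these 4 genes, the values of the 10 FGF1-treated mice did not overlap those of the 4 vehicle-treated mice, which was so for 14.4% of all genes. The median log2 fold change of the 6 genes was 0.46, beside 0.007 over all genes. Fgfr2 was lower by less than the fold threshold and Fgfr3 was at the vehicle level.

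Fgf1 (ENSMUSG00000036585, GRCm38 chromosome 18, 38838673 to 38929472, minus strand) encodes the ligand whose human protein was injected. Its level in FGF1-treated mice of Day 1 had a lowest value of 114, a median of 125 and a highest value of 134 CPM. The vehicle-treated mice had 157, 219, 175 and 188 CPM. All 10 FGF1-treated mice lay below the lowest vehicle-treated mouse, and their spread was also narrower (SD of 6.97 against 26.1 CPM). The log2 fold change was -0.57 (SE 0.07, adjusted p = 9.34e-09 by edgeR), and a two-sided exact permutation test of log2(CPM + 0.5) gave p = 0.000999, the smallest it can give for these groups. Without vehicle replicate 2, the mouse at 219 CPM, the log2 fold change was -0.48 (edgeR, adjusted p = 1.38e-06), which is under the fold threshold.

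Fgf2 (ENSMUSG00000037225, chromosome 3, 37348346 to 37410108, plus strand) encodes the other ligand, a mitogen of glia and neural progenitors. FGF1-treated mice of Day 1 had a lowest value of 46.3, a median of 59.4 and a highest value of 103 CPM. Vehicle-treated mice had 14.6, 29.1, 18.4 and 13.5 CPM. The lowest FGF1-treated mouse lay above the highest vehicle-treated mouse, and the mouse at 103 CPM stood apart within its group. This was a log2 fold change of 1.76 (SE 0.165, edgeR, adjusted p = 3.82e-12) and the exact permutation p was again 0.000999. Leaving out each vehicle-treated mouse in turn gave between 1.63 and 2.04. Fgf2 shares 640 exon bases with Nudt6 on the opposite strand, a gene for which no counts were analysed here, and the strand setting of the counting is not given in the sources used here. Opposite-strand overlaps were also annotated for Fgfr3 (998 exon bases with G630022F23Rik) and Fgfr1 (164 with Gm16159). On its own strand, Fgf2 shares 255 exon bases with Gm43439.

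Because both ligands are counted in the same library, their ratio does not depend on the scaling between libraries. The ratio of Fgf1 to Fgf2 counts had a median of 10.1 in vehicle-treated mice of Day 1 (7.53 to 14.0) and of 2.05 in FGF1-treated mice (1.30 to 2.50). The ranges did not overlap. The ratios were chosen after the values were seen and were not tested. On Day 5 the median was 8.14 in FGF1-treated mice (6.34 to 9.54), 10.5 in non-diabetic vehicle-treated mice (9.73 to 12.8) and 10.8 in diabetic ones (9.61 to 12.3). The FGF1-treated mice thus lay below both vehicle groups on Day 5 too, by a smaller distance. On Day 42 the ranges overlapped, with medians of 11.3 and 12.1.

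**Figure D1:**
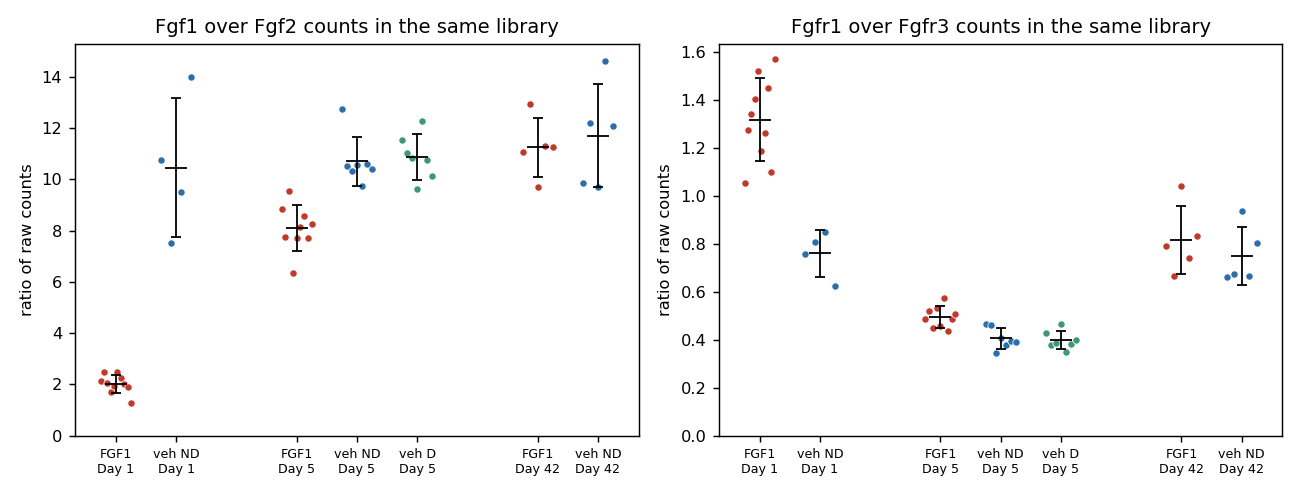
Ratios of raw counts of 2 genes in the same library (vertical axis, no unit) for each mouse in the 7 groups, red for FGF1, blue for vehicle non-diabetic (ND) and green for vehicle diabetic (D), with black bars for the mean ± SD. On Day 1 the ratio of Fgf1 to Fgf2 lay between 1.30 and 2.50 in FGF1-treated mice and between 7.53 and 14.0 in vehicle-treated mice, and the ratio of Fgfr1 to Fgfr3 between 1.05 and 1.57 against 0.624 and 0.850.

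Among the kinase receptors, Fgfr1 (ENSMUSG00000031565, chromosome 8, 25513654 to 25575718, plus strand), which binds FGF1 and FGF2, was the one that passed. FGF1-treated mice of Day 1 had a lowest value of 183, a median of 208 and a highest value of 283 CPM. Vehicle-treated mice had 130, 104, 128 and 133 CPM. All FGF1-treated mice lay above all vehicle-treated mice, of which replicate 2 at 104 CPM was the lowest and stood apart. Its log2 fold change was 0.87 (SE 0.105, edgeR, adjusted p = 3.13e-09, exact permutation p = 0.000999), and 0.80 without that mouse.

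Fgfr2 (ENSMUSG00000030849, chromosome 7, 130162451 to 133123350, minus strand) encodes a kinase receptor whose isoforms bind different FGFs. It ranged from 31.5 to 47.4 CPM in FGF1-treated mice of Day 1, with a median of 37.1, and vehicle-treated mice had 44.5, 56.9, 43.9 and 54.1 CPM. The groups overlapped, since 2 FGF1-treated mice, at 47.4 and 46.9 CPM, were above the lowest vehicle-treated mice. It had a log2 fold change of -0.39 (SE 0.095), with an adjusted p of 0.00086 by edgeR and an exact permutation p of 0.00699, so it missed the fold threshold and not the adjusted p. The annotation gives Fgfr2 314 exon bases in common with Ctbp2 on the same strand, and reads there could have been counted for either gene.

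Oligodendrocyte markers were lower on Day 1, as was Fgfr2. Of 8 such markers, among them Mog and Mal of the myelin sheath, 7 were lower and none was higher, with a median log2 fold change of -0.72. Over all genes, 8.05% passed as lower, and under 12 alternative settings between 5 and 7 of the 8 markers did. Sums of oligodendrocyte precursor markers, and of astrocyte markers without Gfap, also lay below vehicle with no overlap. Their summed level ran from 2175 to 4124 CPM in FGF1-treated and from 3703 to 5465 CPM in vehicle-treated mice. The largest fall was that of Mog, with a log2 fold change of -1.62 (SE 0.16, edgeR, adjusted p = 1.47e-11). The part of these cells in the Fgfr2 value was not tested, and in bulk tissue fewer cells of a type and less RNA per cell cannot be told apart.

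Fgfr3 (ENSMUSG00000054252, chromosome 5, 33721674 to 33737068, plus strand), the receptor best known from astrocytes, ranged from 132 to 204 CPM in FGF1-treated mice of Day 1 with a median of 184. Vehicle-treated mice had 172, 128, 151 and 212 CPM and enclosed the whole FGF1 range. Its log2 fold change was 0.05 (SE 0.09, edgeR, adjusted p = 0.663), and the interval of 2 SE on either side ran from -0.13 to 0.24. The Day 1 value of the astrocyte markers was mixed: of 10, Gfap and Sox9 rose and 3 fell, with a median log2 fold change of -0.36. Gfap, a filament protein of astrocytes, was at 1787 ± 232 against 256 ± 25.7 CPM and Gjb6, a gap junction protein, at 53.8 ± 8.52 against 148 ± 21.01 CPM (SD, n = 10 and n = 4). The summed level of these 10 was 4942 to 6071 CPM in FGF1-treated and 4624 to 5364 CPM in vehicle-treated mice, and without Gfap it was 3211 to 3890 against 4397 to 5078 CPM, with no overlap. Their part in the Fgfr3 value was not tested.

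The balance of the receptors within a library shifted with Fgfr1. The ratio of Fgfr1 to Fgfr3 counts was 1.05 to 1.57 in FGF1-treated mice of Day 1, with a median of 1.31, and 0.624 to 0.850 in vehicle-treated mice, with a median of 0.782. The ratio of Fgfr1 to Fgfr2 was 3.86 to 8.34 against 1.82 to 2.92. Neither ratio overlapped between the groups. In raw counts, Fgfr1 was above Fgfr3 in every FGF1-treated mouse and below it in every vehicle-treated mouse. The genes differ in length, and per kilobase of exon this order was not reached. FGF1-treated mice of Day 1 had 24.1 ± 3.32 CPM per kilobase for Fgfr3 and 22.8 ± 3.76 for Fgfr1 (SD, n = 10). With the longest coding transcript as the length, the levels were 40.6 ± 5.59 and 44.7 ± 7.37.

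Fgfrl1 (ENSMUSG00000008090, chromosome 5, 108692382 to 108706924, plus strand) encodes the receptor without a kinase domain, which binds FGFs and heparan sulfate and is often described as a decoy. It was the transcript with the fewest reads of the 6. FGF1-treated mice of Day 1 had a lowest value of 15.5, a median of 24.8 and a highest value of 31.1 CPM. Vehicle-treated mice had 7.34, 6.86, 8.54 and 11.2 CPM. All FGF1-treated mice lay above all vehicle-treated mice, with the lowest value in the library of 1243280 counts, where it rests on 19 counts. For Fgfrl1 the log2 fold change was 1.52 (SE 0.16, edgeR, adjusted p = 8.76e-11, exact permutation p = 0.000999), and 1.545 without that library. Since Fgfrl1 rose more than Fgfr1, the ratio of Fgfr1 to Fgfrl1 counts was 5.88 to 12.4 in FGF1-treated and 11.8 to 17.7 in vehicle-treated mice, with an overlap.

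For Fgfrl1, the bases before its RefSeq start are shown. This window was chosen, after the search, as the one that held both an ETS motif and an E-box among the windows of Fgf2, Fgfr2, Fgfr3 and Fgfrl1. Fgf1 and Fgfr1 were not searched here. The window of 250 bases lies at chr5:108693979-108694228 on the plus strand of GRCm38.p6 in no annotated exon but inside the longer GENCODE gene, and capitals mark the motifs:
Fgfrl1 upstream: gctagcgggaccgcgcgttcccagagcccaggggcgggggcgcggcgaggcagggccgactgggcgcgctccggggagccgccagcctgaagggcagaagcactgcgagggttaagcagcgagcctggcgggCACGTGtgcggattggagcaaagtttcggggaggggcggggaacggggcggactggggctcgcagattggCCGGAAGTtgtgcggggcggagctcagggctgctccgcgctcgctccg
The E-box CACGTG begins 118 bases and the ETS motif CCGGAAGT 48 bases before the start. Searched on both strands from 250 bases before to 50 after each start, the ETS motif was in 7.12% and the E-box in 9.4% of 14309 RefSeq promoters. The AP-1 motif TGACTCA and the CRE motif TGACGTCA, in 3.56% and 2.94% of promoters, were not in the windows of Fgf2, Fgfr2, Fgfr3 or Fgfrl1, and among these windows the ETS motif was in that of Fgfrl1 and the E-box in those of Fgfrl1 and Fgfr2. A match is a description of these letters and not a binding site.

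**Figure D2:**
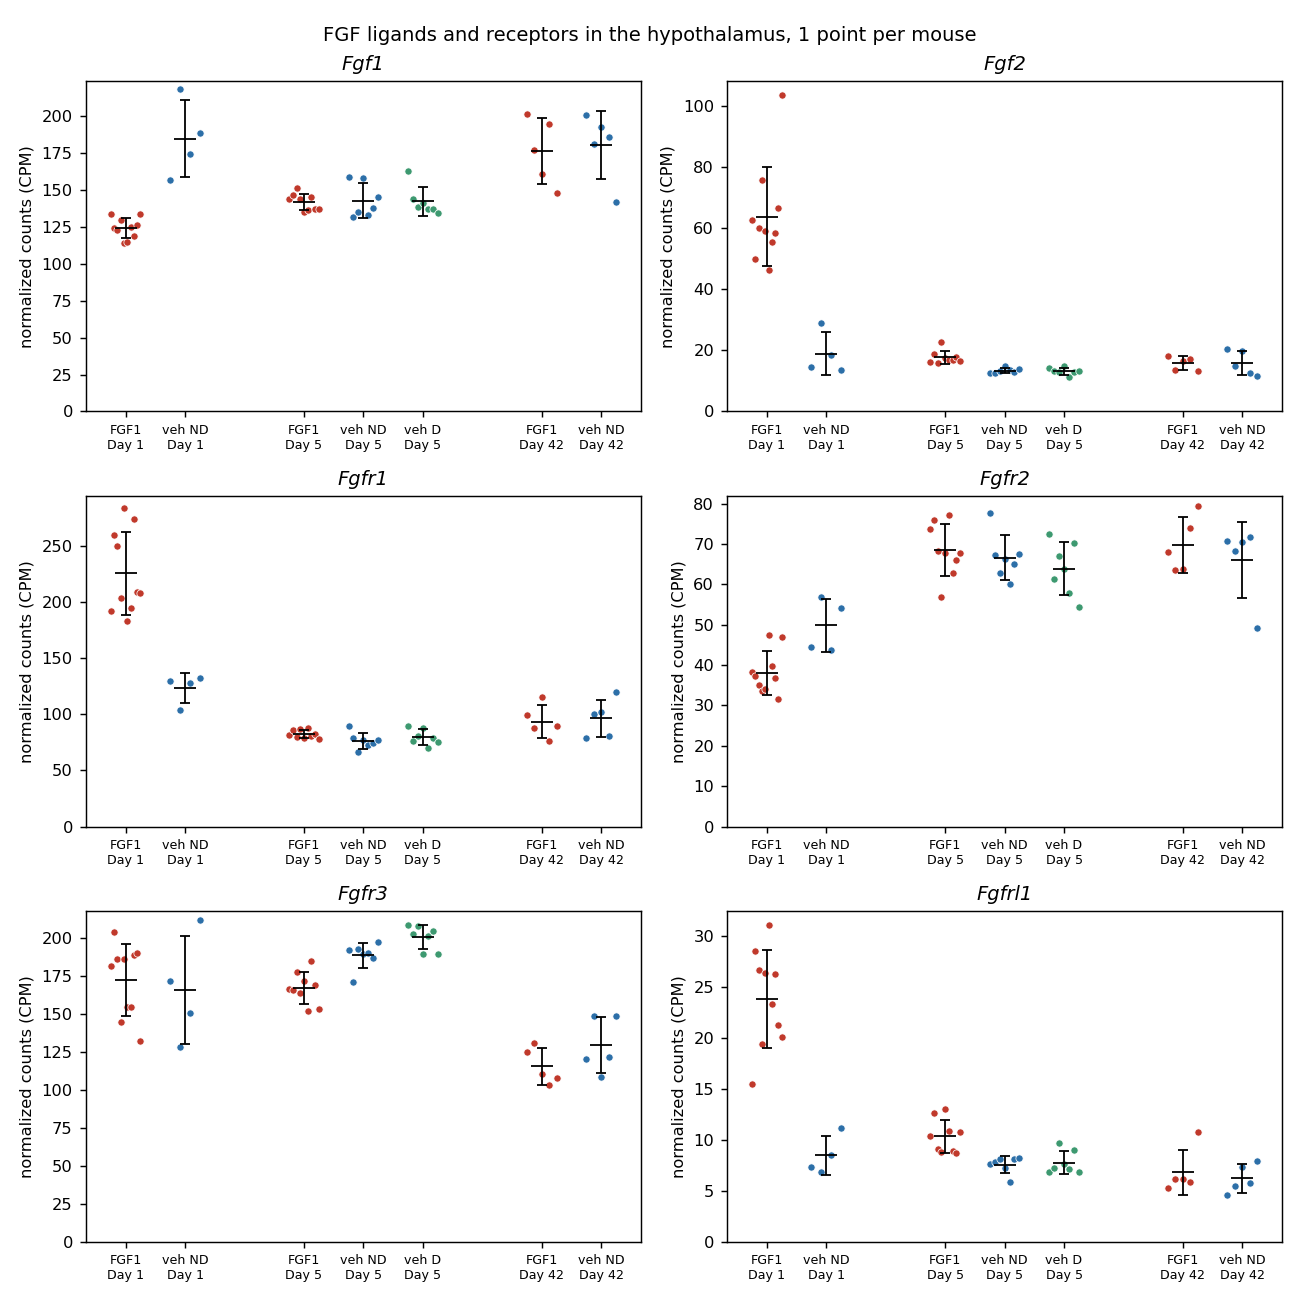
CPM (vertical axis, linear from 0, a scale for each gene) of the 6 genes in each of the 47 mice by group, red for FGF1, blue for vehicle non-diabetic (ND) and green for vehicle diabetic (D), with black bars for the mean ± SD. On Day 1 Fgf2, Fgfr1 and Fgfrl1 lay above and Fgf1 below every vehicle-treated mouse, and on Day 42 the groups overlapped for each gene.

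Downstream of the receptors on Day 1, 11.5% of all genes passed as higher and 8.05% as lower. The feedback inhibitors and ETS targets of the pathway stood at 12 of 17 higher and 0 lower, with a median log2 fold change of 0.76. The largest changes were those of Dusp5, a phosphatase of nuclear ERK, at 22.2 ± 7.79 against 2.27 ± 0.650 CPM, of Dusp6, a phosphatase of cytoplasmic ERK, at 51.9 ± 11.2 against 13.3 ± 0.617 CPM, and of Spry2, an inhibitor of receptor signalling, at 57.2 ± 7.97 against 15.9 ± 1.87 CPM (SD, n = 10 and n = 4). Their log2 fold changes were 3.31 (SE 0.29), 1.97 (SE 0.19) and 1.85 (SE 0.12), with adjusted p of 4.36e-13, 9.55e-12 and 7.04e-17 by edgeR. The count of genes passing higher in this list was between 11 and 13 under 12 alternative settings, which include the tool, the scaling and the libraries used. The summed level of the 17 genes ran from 684 to 1179 CPM in FGF1-treated and from 531 to 586 CPM in vehicle-treated mice.

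Between receptor and target, of 18 core kinases and RAS proteins, 3 were higher and 0 lower, with a median of 0.05: Nras, a RAS GTPase, at 79.6 ± 11.6 against 43.0 ± 4.77 CPM, Akt2, a kinase of the PI3K branch, at 57.1 ± 8.22 against 31.5 ± 5.44 CPM, and Map2k2, which phosphorylates ERK, at 52.0 ± 14.9 against 33.6 ± 10.4 CPM. Of 16 receptor adaptors, 3 were higher and 1 lower, with a median of 0.08. Shc1 and Shb, which link activated receptors to signalling, had log2 fold changes of 0.71 (SE 0.11) and 0.595 (SE 0.135), and Grb14, an inhibitory adaptor, of -0.56 (SE 0.11). Frs2, the adaptor of FGF receptors, was at 56.4 ± 4.78 against 70.6 ± 6.39 CPM, under the fold threshold, and was named after its value was seen.

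Heparan sulfate, without which FGFs bind their receptors weakly, is carried by core proteins and finished by modifying enzymes. Of 12 core proteins in the table, 4 were higher on Day 1 and 0 lower, with a median log2 fold change of 0.17. Sdc1 rose from 2.26 ± 0.351 to 14.4 ± 6.23 CPM, Sdc4 from 118 ± 11.2 to 283 ± 44.8 CPM, both syndecans of the cell surface, and Hspg2, the basement membrane protein perlecan, from 6.95 ± 1.97 to 16.2 ± 6.88 CPM. Of 27 enzymes of its synthesis and editing, 4 were higher and 2 lower, with a median of 0.02. Over all genes, 11.5% passed as higher and 8.05% as lower. Under 12 alternative settings, 3 to 5 of these enzymes were higher and 1 to 4 lower. Hs3st3b1 and Hs3st2, which add sulfate at the 3-O position, had log2 fold changes of 1.28 (SE 0.20) and 0.87 (SE 0.25). Hs6st3, a 6-O sulfotransferase, had -1.21 (SE 0.33) at levels of only 0.294 and 0.536 CPM.

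Of 6 other FGF ligands in the table, 0 were higher and 1 lower on Day 1, namely Fgf22, an FGF of synapse formation, at 2.52 ± 0.543 against 4.55 ± 1.55 CPM. Without vehicle replicate 2, 2 of the 6 were lower. Of the 4 intracellular FGF homologous factors, which bind sodium channels and not receptors, Fgf14 was lower with a log2 fold change of -0.55 (SE 0.11), and the median of the 4 was -0.46. Leaving out the same library, 0 of the 4 were lower, and under the other settings up to 3 were. Of 13 receptor partners and FGF binding proteins, 1 was higher and 3 lower. Itgav, the integrin αv chain, rose from 48.5 ± 11.1 to 116 ± 30.4 CPM, whereas the secreted FGF carriers Fgfbp1 and Fgfbp3 had log2 fold changes of -1.53 (SE 0.39) and -0.68 (SE 0.15). The one klotho in the table, Kl, a co-receptor of endocrine FGFs, was at 10.8 ± 1.54 against 13.0 ± 0.548 CPM and did not pass.

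**Figure D3:**
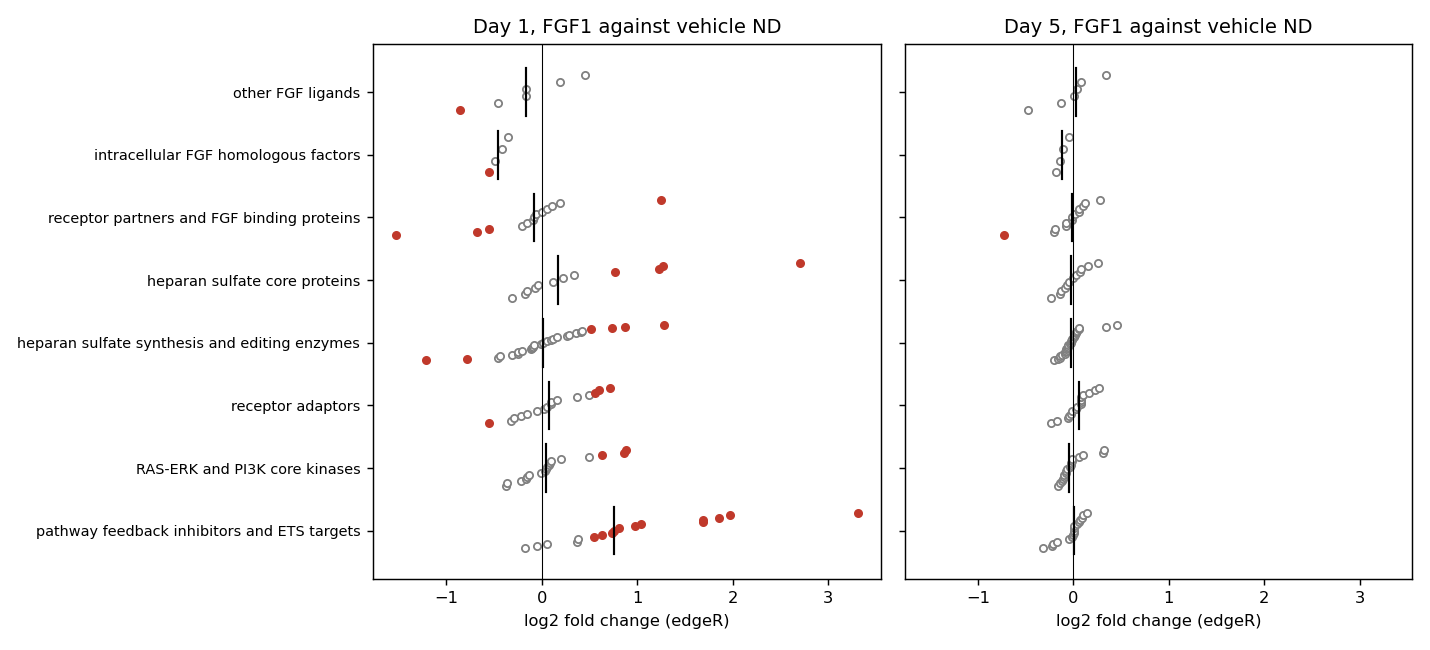
Log2 fold change of FGF1 against non-diabetic vehicle by edgeR (horizontal axis) for each gene of 8 FGF pathway lists (rows) on Day 1 (left) and Day 5 (right), filled red where the gene passed and open where it did not, with a black line at the list's median. On Day 1, 12 of 17 feedback inhibitors and ETS targets were filled on the right of 0, and on Day 5 none of them was.

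Cell type markers other than those above are given beside the shares of all genes that passed on Day 1, 11.5% higher and 8.05% lower. Of 8 microglia markers 5 were higher and 1 lower, of 8 meningeal fibroblast markers 3 were higher and 2 lower, and of 8 endothelial markers 2 were higher and 1 lower. Of 8 ependymal markers 3 were lower, of 7 oligodendrocyte precursor markers 3 were lower, and 2 of the 4 choroid plexus markers with counts were lower. Of 8 tanycyte markers 1 was higher and 1 lower, of 10 neuron markers 0 passed, and of 8 markers of neighbouring regions and pituitary 2 were higher, Pomc among them. The last count was 1 or 2 under 12 alternative settings. DESeq2 called 3 microglia markers higher and 2 neuron markers lower, and without FGF1 replicate 1 the counts were 4 and 1. Pomc is also among the 13 hypothalamus markers, of which it was the one higher (log2 fold change 1.71, SE 0.475), whereas Npy (-0.61, SE 0.23) and Pmch (-0.55, SE 0.16) were lower. Without vehicle replicate 2, 0 of the 13 were lower. Summed microglia markers ran from 236 to 319 CPM in FGF1-treated and from 215 to 245 CPM in vehicle-treated mice, and summed ependymal markers from 59.8 to 96.3 against 90.8 to 124 CPM. The sums of 3 other lists lay below vehicle with no overlap, at 3700 to 4795 against 4864 to 6012 CPM for neurons, 95.0 to 157 against 163 to 188 CPM for oligodendrocyte precursors and 20.96 to 38.4 against 45.4 to 58.5 CPM for choroid plexus. Summed hypothalamus markers ran from 917 to 1350 against 1295 to 1764 CPM. No marker in the table was at 0 in all libraries of a group. The part of these cell types in the Day 1 values of the 6 genes was not tested.

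On Day 5, 0 of the 6 genes passed against non-diabetic vehicle, where 1.54% of all genes passed, and 0 against diabetic vehicle, where 2.85% did. Against each vehicle group, 3 of the 6 had an unadjusted p under 0.05 by edgeR, namely Fgf2, Fgfrl1 and Fgfr3, as did 16.5% and 21.8% of all genes, and DESeq2 also passed 0. Both comparisons share the same 9 FGF1-treated mice. Without the fold threshold, the counts were 0 and 2, where 4.65% and 9.21% of all genes passed. Fgf2 and Fgfrl1, which had risen most on Day 1, were still above vehicle by smaller amounts, Fgfr3 was below, and Fgfr1, Fgfr2 and Fgf1 were near the vehicle level.

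Fgf2 in FGF1-treated mice of Day 5 had a lowest value of 15.9, a median of 17.0 and a highest value of 22.7 CPM. Non-diabetic vehicle-treated mice ran from 12.5 to 15.0 CPM and diabetic ones from 11.1 to 14.7 CPM, with a median of 13.1 in both. All 9 FGF1-treated mice were above all 14 vehicle-treated mice. The log2 fold change was 0.405 (SE 0.145) against the non-diabetic and 0.43 (SE 0.14) against the diabetic group, with adjusted p of 0.105 and 0.0477 by edgeR. The exact permutation p was 8.74e-05 in each, the smallest these groups allow. In a fit of the Day 5 libraries alone, in which the spread was not shared with the other days, the adjusted p were 0.000109 and 2.31e-05 by edgeR with log2 fold changes of 0.41 and 0.44.

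Fgfrl1 ran from 8.70 to 13.0 CPM in FGF1-treated mice of Day 5, with a median of 10.4. Non-diabetic vehicle-treated mice ran from 5.88 to 8.18 CPM with a median of 7.79, and diabetic ones from 6.81 to 9.71 CPM with a median of 7.23. The FGF1-treated mice lay above all non-diabetic mice, and 5 of 9 lay above all diabetic mice. The log2 fold change was 0.44 (SE 0.14, edgeR, adjusted p = 0.0663, exact permutation p = 0.000524) and 0.40 (SE 0.14, edgeR, adjusted p = 0.0641, exact permutation p = 0.00262). With the Day 5 libraries alone, the adjusted p were 0.00242 and 0.00293 by edgeR.

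Fgfr3 did not pass either, with values on the other side of vehicle. FGF1-treated mice of Day 5 ran from 152 to 185 CPM with a median of 167, non-diabetic vehicle-treated mice from 171 to 198 CPM with a median of 191, and diabetic ones from 190 to 209 CPM with a median of 203. All FGF1-treated mice were below all diabetic mice, and they overlapped the non-diabetic mice. The log2 fold change was -0.17 (SE 0.08, edgeR, adjusted p = 0.249, exact permutation p = 0.0014) and -0.26 (SE 0.08, edgeR, adjusted p = 0.0265, exact permutation p = 0.000175). With the Day 5 libraries alone, the adjusted p were 0.00158 and 5.48e-06 by edgeR, with all values under the fold threshold. The groups of 2 of the 6 genes did not overlap in each comparison, Fgf2 and Fgfrl1 against non-diabetic vehicle, where this was so for 3.93% of all genes, and Fgf2 and Fgfr3 against diabetic vehicle, where it was so for 6.08%.

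Astrocyte markers did not go down with Fgfr3 on Day 5. Of the 10, 2 were higher and 0 lower against either vehicle group, namely Gfap and Aqp4, the water channel of astrocyte endfeet. Their summed level was 5429 to 5979 CPM in FGF1-treated mice, above the 4753 to 4945 CPM of non-diabetic and the 4635 to 5177 CPM of diabetic vehicle-treated mice. Fgfr2 did not move with the oligodendrocyte markers on this day: 3 of 8 of them were higher against either group and 0 lower, as were 4 of 7 oligodendrocyte precursor markers, whereas Fgfr2 had a median of 67.7 CPM in FGF1-treated and of 66.2 and 63.8 CPM in vehicle-treated mice. The log2 fold change of Fgfr2 was 0.04 and 0.10 (SE 0.08 in both, edgeR, adjusted p = 0.912 and 0.555). Of 8 microglia markers 6 were higher against diabetic and 0 against non-diabetic vehicle, with medians of 0.557 and 0.359. Over all genes, 2.36% and 1.31% passed as higher. Summed microglia markers ran from 300 to 368 CPM in FGF1-treated and from 216 to 254 CPM in diabetic mice. Non-diabetic mice ran from 240 to 381 CPM with a median of 246, the highest of them above every FGF1-treated mouse. Of 8 meningeal fibroblast markers, 0 were higher against diabetic and 2 against non-diabetic vehicle, with medians of 0.588 and 0.751. These counts moved with the fit: from the libraries of Day 5 alone 4 and 5 were higher, and over all alternatives 0 to 6 and 2 to 5. Their sums ran from 92.6 to 291 CPM in FGF1-treated mice, against 76.5 to 176.5 CPM in diabetic and 67.5 to 169 CPM in non-diabetic vehicle-treated mice.

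Summed ependymal markers ran on Day 5 from 85.2 to 114 CPM in FGF1-treated mice, above the 58.0 to 84.6 CPM of diabetic and overlapping the 65.3 to 91.4 CPM of non-diabetic vehicle-treated mice. Of the 8, 1 was higher against diabetic vehicle, namely Dnah11, a dynein of motile cilia, with a log2 fold change of 0.55 (SE 0.17, edgeR, adjusted p = 0.032), and 0 passed against non-diabetic vehicle. The count against diabetic vehicle was 0 or 1 under 8 alternative settings. Of 8 tanycyte markers, 1 was higher against either group, namely Gpr50, an orphan receptor related to the melatonin receptors, at 13.3 ± 2.05 CPM against 7.49 ± 0.760 and 7.10 ± 0.946 CPM. None of the 10 neuron markers passed against either group, and their sums were 2910 to 3561 CPM against 3327 to 3933 CPM in diabetic and 3560 to 3700 CPM in non-diabetic vehicle-treated mice. The part of these cell types in the Day 5 values was not tested.

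Fgfr1 ran from 77.7 to 87.3 CPM in FGF1-treated mice of Day 5, within the 66.1 to 89.7 CPM of the non-diabetic and the 69.9 to 89.3 CPM of the diabetic group. Its log2 fold change was 0.11 and 0.05 (SE 0.09 in both), and the upper bounds at 2 SE were 0.285 and 0.225, below its Day 1 value. The exact permutation p for Fgfr1 was 0.0435 and 0.31, not corrected for the number of genes. The ratio of Fgfr1 to Fgfr3 counts was 0.435 to 0.574 in FGF1-treated mice and 0.343 to 0.47 and 0.347 to 0.463 in the vehicle groups, with an overlap. Fgf1 ran from 135 to 152 CPM in FGF1-treated mice, within the ranges of 132 to 159 and 134 to 163 CPM, and its log2 fold change was -0.010 and -0.003 (SE 0.064 in both).

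On Day 5, 1.31% of all genes passed as higher and 0.232% as lower against non-diabetic vehicle, and 2.36% and 0.499% against diabetic vehicle. Of the 17 feedback inhibitors and ETS targets, 0 passed against either group by edgeR and under the 9 and 8 alternative settings tried, which include DESeq2, with medians of 0.006 and -0.022. Fgfbp3 was lower against both, at 4.09 ± 1.10 against 6.63 ± 0.955 and 6.09 ± 0.816 CPM (SD, n = 9 and n = 7 each). Against diabetic vehicle Sulf1, an enzyme that removes 6-O sulfate from heparan sulfate outside the cell, was higher at 44.1 ± 3.63 against 31.1 ± 2.96 CPM, with a log2 fold change of 0.501 at the edge of the threshold. The Sulf1 call was lost with DESeq2, and that of Fgfbp3 against diabetic vehicle without the 2 deepest FGF1 libraries of Day 5. No other gene of the ligand, partner, heparan sulfate, adaptor and kinase lists passed on Day 5.

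Between the vehicle groups of Day 5, labelled diabetic and non-diabetic, 0 of the 6 genes passed in edgeR and in DESeq2, 0 had an unadjusted p under 0.05 and 0 had groups that did not overlap. Over all genes, 0 (0%) passed in either tool, 193 (1.36%) had an unadjusted p under 0.05 and 0.0984% had groups that did not overlap. The largest difference of the 6 was that of Fgfr3, with a log2 fold change of 0.09 (SE 0.09, edgeR, adjusted p = 1), where 5 of 7 diabetic mice were above all non-diabetic mice. The exact permutation p for Fgfr3 was 0.0146, not corrected for the 6 genes.

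On Day 42, 0 of the 6 genes passed in edgeR and in DESeq2, 0 had an unadjusted p under 0.05, and none had groups that did not overlap, which was so for 0.267% of all genes. Over all genes, 0 (0%) passed in either tool and 776 (5.46%) had an unadjusted p under 0.05. Fgf2 was at 18.2, 13.7, 16.6, 17.2 and 13.2 CPM in FGF1-treated and at 20.4, 14.8, 19.8, 12.7 and 11.7 CPM in vehicle-treated mice, and its log2 fold change was -0.005 (SE 0.16). The interval of 2 SE, from -0.33 to 0.32, left out the Day 1 value of 1.76.

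The other genes overlapped on Day 42 as well. Fgfrl1 was at 5.23, 6.20, 6.14, 5.85 and 10.7 CPM in FGF1-treated and at 4.54, 5.50, 7.34, 5.73 and 7.93 CPM in vehicle-treated mice, with 1 FGF1-treated mouse standing apart as the highest. Its log2 fold change was 0.12 (SE 0.17). Fgfr3 was at 125, 131, 111, 103 and 108 against 120, 149, 108, 122 and 149 CPM, with a log2 fold change of -0.17 (SE 0.10, edgeR, adjusted p = 1) and an unadjusted p of 0.1 by edgeR. Fgfr1, Fgfr2 and Fgf1 had log2 fold changes of -0.04, 0.08 and -0.03 with SE between 0.08 and 0.11. Of the 17 feedback inhibitors and ETS targets 0 passed on Day 42, with a median log2 fold change of 0.13, and no gene of the other pathway lists passed.

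**Figure D4:**
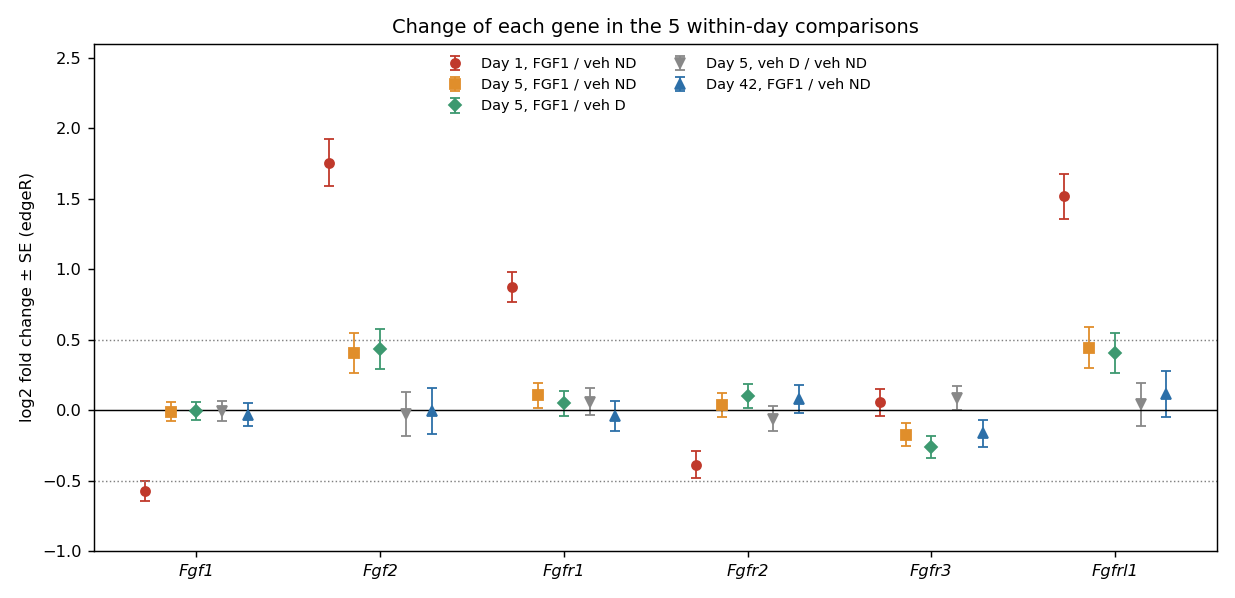
Log2 fold change with its SE (vertical axis, edgeR) of the 6 genes in the 5 comparisons within a day, by colour and marker, with dotted lines at the fold threshold of 0.5 in either direction. The values of Day 1 reached 1.76 for Fgf2 and 1.52 for Fgfrl1, whereas those of Days 5 and 42 stayed within the dotted lines.

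The FGF1 effect itself differed between days. From Day 1 to Day 5, against non-diabetic vehicle on both days, the difference of the effects passed for 4 of 6 genes, where 15.8% of all genes passed. The effect on Fgf2 dropped by 1.35 on the log2 scale (SE 0.21), on Fgfrl1 by 1.07 (SE 0.21) and on Fgfr1 by 0.77 (SE 0.14), and that on Fgf1 moved upward by 0.56 (SE 0.10). Fgfr2 moved upward by 0.42 (SE 0.13, edgeR, adjusted p = 0.0102), under the fold threshold. From Day 5 to Day 42, 0 of 6 passed in edgeR and in DESeq2, 0 of 6 had an unadjusted p under 0.05, where 9.98% of all genes had one, and 0.717% of all genes passed (102 genes, and 56 without FGF1 replicate 5 of Day 42), with Fgf2 at -0.41 (SE 0.22, edgeR, adjusted p = 0.561) and Fgfrl1 at -0.33 (SE 0.22, edgeR, adjusted p = 0.714). From Day 1 to Day 42, 4 of 6 passed, the same 4 genes, where 16.4% of all genes did. Without vehicle replicate 2 of Day 1, the difference of Fgf1 was 0.476 for Day 5 and 0.458 for Day 42, under the fold threshold, and 3 genes passed in each. The same difference passed as lower for 11 of the 17 feedback inhibitors and ETS targets on Day 5 and for 11 on Day 42, with medians of -0.705 and -0.685. These comparisons across days set effects of different preparations side by side, each measured within its own day.

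Levels also differed between days in vehicle-treated mice, which cannot be told apart from the preparation. Fgfr1 had 124 ± 13.4 CPM in non-diabetic vehicle-treated mice of Day 1, 76.4 ± 7.21 on Day 5 and 96.4 ± 16.7 on Day 42 (SD, n = 4, n = 7 and n = 5). Fgfr3 had 166 ± 35.7, 189 ± 8.40 and 130 ± 18.3 CPM, and Fgfr2 49.8 ± 6.64, 66.6 ± 5.53 and 66.1 ± 9.51 CPM. In the order of all 7 groups by mean level, the FGF1-treated mice of Day 1 were the highest for Fgf2, Fgfr1 and Fgfrl1 with no overlap with the next group, and the lowest for Fgf1 with no overlap with the group above. Every other pair of neighbours in the order of each gene overlapped.

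Genes with the most similar course were sought over the 47 libraries by Pearson's correlation of log2(CPM + 0.5) after the mean of each day was removed, among 12173 other genes of at least 5 CPM on average. For Fgf2 they were Slc5a3, a myo-inositol transporter (r = 0.950), Tpm4, a tropomyosin (r = 0.937), and Msn, the cytoskeletal linker moesin (r = 0.932). For Fgfr1 they were Sec61a1 of the protein translocation channel (r = 0.932), Sbno2 (r = 0.930) and Col5a3, a collagen (r = 0.912), and for Fgfrl1 the calcium-binding S100a6 (r = 0.888) and S100a13 (r = 0.883) and the lectin Lgals1 (r = 0.883). These 9 genes all passed as higher on Day 1 (log2 fold changes of 0.72 to 3.36), so the correlations hold the treatment effect. Within the groups, after each group's mean was removed, r was 0.771, 0.723 and 0.624 for the genes of Fgf2, 0.831, 0.807 and 0.763 for those of Fgfr1, and 0.546, 0.566 and 0.521 for those of Fgfrl1.

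Fgf1 was most like Rcbtb1 (r = 0.885), Amot, an angiomotin of cell junctions (r = 0.861), and Nadk2, a mitochondrial NAD kinase (r = 0.858), all lower on Day 1. Fgfr2 was most like Pls1, a plastin (r = 0.776), Evi2a (r = 0.776) and Itm2a (r = 0.771), which were lower on Day 1 too, with log2 fold changes of -0.90, -0.96 and -0.78. Fgfr3 was most like Ap1b1, an adaptor subunit of vesicle coats (r = 0.841), Mettl22 (r = 0.823) and Ndufv1 of respiratory complex I (r = 0.820), none of which passed on Day 1, and within groups these r were 0.854, 0.801 and 0.802. Libraries of 1 day share a preparation and differ in depth, and these values are a description with no p.

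Correlations between the 6 genes themselves changed when the treatment was taken out. Fgf2 and Fgfr1 had r = 0.642 with the day's mean removed and r = -0.178 with the group's mean removed, and Fgf2 and Fgfrl1 had r = 0.63 and r = -0.492. Fgfr1 and Fgfrl1 had r = 0.753 and r = 0.324. Fgf1 and Fgf2, which moved in opposite directions on Day 1, had r = -0.475 with the day's mean removed and r = 0.590 within the groups. These are descriptions over 47 libraries of unequal depth.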

How the data were processed

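Gene expression was measured by strand-specific mRNA sequencing of 47 hypothalami. The authors aligned the reads with STAR and deposited raw counts per gene as whole numbers. Their notes name the build GRCh38, the name of a human assembly, although the samples are mouse. The counting program and its strand setting are not given in the sources used here. Quantile normalization, described in their methods, is not in these counts, since library totals differ. Coordinates come from GENCODE for GRCm38, matched by symbol for 14158 of 14221 genes, and sequences from RefSeq tables of GRCm38.p6.

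From the counts, TMM factors and a quasi-likelihood fit with 1 mean per group were computed with edgeR 4.0.16 under R 4.3.3 (no gene was removed by filterByExpr). SE is the absolute log2 fold change divided by the root of F. Two-sided exact permutation tests used log2(CPM + 0.5). Benjamini-Hochberg adjustment covered all genes. In simulated counts for the 14221 genes, 200 changed genes with a log2 fold change of 1.5 were recovered at 99.5% for Day 1, 98% for Day 5 and 99% for Day 42. The simulation gave all groups the same baseline. The changes of the described genes on Days 5 and 42 were smaller than 1.5, so these rates do not give the power for them. No 2 libraries of a group agreed within sampling noise (lowest chi-square per degree of freedom 1.665).

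The members and gene lists were chosen with earlier results of these data known. From each list, the 3 genes with the largest absolute log2 fold change among those passing are named (some genes are not reported here). The alternatives tried were quantile normalization or quality weights with limma 3.58.1, DESeq2 1.42.0 or only its size factors, other count filters, the libraries of each day alone, both Day 5 vehicle groups merged, pseudocounts of 0.1 and 2, no fold threshold, and mice left out. A fit that left out the 2 deepest Day 5 libraries of FGF1-treated mice and the counts of the lists under these settings were added after seeing the data.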

Additional observations from a re-analysis of the deposited data

Results flagged for a closer look

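The FGF1 effect differed between days, by edgeR's test of the difference of log2 fold changes. From Day 1 to Day 5 the differences were 0.56 for Fgf1, -1.35 for Fgf2, -0.77 for Fgfr1 and -1.07 for Fgfrl1. From Day 1 to Day 42 they were 0.54 for Fgf1, -1.76 for Fgf2, -0.91 for Fgfr1 and -1.40 for Fgfrl1. In each case the gene was changed on Day 1 and nearer to vehicle on the later day. Both values of Fgf1 fell under the fold threshold without vehicle replicate 2 of Day 1 (0.476 and 0.458).

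Of 42 sets of values (6 genes in 7 groups), 9 held a mouse whose distance to the next mouse exceeded Dixon's critical value at an end of the group. Chance gives about 1 in 20 for each set. On Day 1 these were the FGF1-treated mouse with the highest Fgf2 (103 CPM, next 75.6) and the vehicle-treated mouse with the lowest Fgfr1 (104 CPM, next 128). On Day 5 they were the FGF1-treated mouse with the highest Fgf2 (22.7 CPM, next 18.9), the non-diabetic mice with the highest Fgfr2 (77.6 CPM, next 67.5), the lowest Fgfr3 (171 CPM, next 187) and the lowest Fgfrl1 (5.88 CPM, next 7.19), and the diabetic mouse with the highest Fgf1 (163 CPM, next 144). On Day 42 they were the vehicle-treated mouse with the lowest Fgfr2 (49.2 CPM, next 68.3) and the FGF1-treated mouse with the highest Fgfrl1 (10.7 CPM, next 6.20). No mouse was flagged in more than 1 gene by this rule. Vehicle replicate 2 of Day 1 was still at an end of its group in all 6 genes. It was the highest for Fgf1, Fgf2 and Fgfr2 and the lowest for Fgfr1, Fgfr3 and Fgfrl1. Vehicle replicate 5 of Day 42 was the lowest of its group for Fgf1, Fgf2 and Fgfr2. It was the highest for Fgfr1, Fgfrl1 and, level with another mouse, Fgfr3.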

How the results depend on the processing

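Under the alternatives, between 3 and 5 of the 6 genes passed on Day 1 and in the differences of Days 5 and 42 from Day 1, and 0 passed in the other comparisons except against diabetic vehicle on Day 5, where 2 passed with no threshold on the fold change. Of 732 recomputed log2 fold changes 676 kept their direction and their side of the threshold, and all 60 permutation tests with other pseudocounts kept their side. No paired analysis was possible because the labels give no replicate numbers and mice were numbered in accession order.

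Changes of direction were found only among values that did not pass. Fgf1 on Day 5 against non-diabetic vehicle was 0.000 with quality weights, 0.010 with at least 10 counts in every library and 0.005 without the 2 deepest FGF1 libraries. Against diabetic vehicle it was 0.015, 0.020 and 0.011, and 0.004 with the libraries of that day alone. Fgf2 on Day 42 was 0.007 with DESeq2, 0.009 with its size factors, 0.026 with quantile normalization, 0.021 with quality weights and 0.002 with at least 10 counts. With quality weights, Fgfr1 on Day 42 was 0.067, Fgfr2 on Day 42 -0.049 and the difference of Fgfr2 between Days 5 and 42 -0.103. That of Fgfr3 was -0.008 both with at least 10 counts and without the 2 deepest libraries. Leaving out 1 mouse at a time, the Day 42 values ran from -0.108 to 0.024 for Fgf1, from -0.097 to 0.101 for Fgf2, from -0.128 to 0.049 for Fgfr1, from -0.011 to 0.110 for Fgfr2 and from -0.090 to 0.218 for Fgfrl1. The differences between Days 5 and 42 ran from -0.098 to 0.034 for Fgf1, from -0.048 to 0.072 for Fgfr2 and from -0.050 to 0.063 for Fgfr3, and Fgfr3 on Day 1 from -0.051 to 0.195. The causes were not tested.

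The difference of Fgf1 between Days 1 and 42 was under the fold threshold not only without vehicle replicate 2 of Day 1 (0.458) but also with quality weights (0.472), without FGF1 replicate 1 of Day 42 (0.489) and without vehicle replicate 5 of Day 42 (0.47). For Fgfr2 the difference of Day 42 from Day 1 passed with DESeq2 (0.527), quantile normalization (0.539) and without vehicle replicate 1 (0.516) or 3 (0.522) of Day 1. Over all genes, removing the fold threshold gave 6396 calls on Day 1 and 661 and 1310 on Day 5, beside 2776, 219 and 406, and at least 10 counts in every library gave 1582, 140 and 219. Against non-diabetic vehicle on Day 5, quantile normalization gave 404, quality weights 438, the libraries of that day alone 370 and both vehicle groups merged 372, and quantile normalization gave 627 against diabetic vehicle. On Day 42 the 0 calls became 31 without FGF1 replicate 1 and 1 without FGF1 replicate 2. For the difference between Days 5 and 42, the 102 calls became 65 without the 2 deepest libraries of Day 5. Depth limits Fgfrl1 most, with as few as 19 counts in a library.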

Other observations

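Kl, the klotho of the choroid plexus and the one klotho in the table, was at 98.6 CPM in 1 FGF1-treated mouse of Day 42 and at no more than 14.8 CPM in vehicle-treated mice of that day. The summed level of 4 choroid plexus markers, Kl among them, reached 204.5 CPM in that group, beside a highest value of 47.1 CPM in vehicle-treated mice.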
